A study of Mus musculus with 10 samples.

Results

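Testis RNA of mice killed 10 h after trichostatin A (TSA) was set against that of mice killed 2.5 h after it, over all probes of the 2 arrays labelled TSA 10 h and the 2 labelled TSA 2.5 h, which are 4 of the 10 arrays of the study. TSA blocks histone deacetylases, the enzymes that take acetyl groups off histones and other proteins, so that acetylated histones accumulate and the transcription of many genes shifts up or down within hours. In the testis histone acetylation is part of the normal program of germ cells: histones become highly acetylated in elongating spermatids shortly before transition proteins and protamines replace them. Compounds of this class are known to disturb spermatogenesis. Both pools were treated, so the values describe which testis transcripts stood at another level at 10 h than at 2.5 h.

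The mice were male BALB/c animals, 9 weeks old. The TSA 10 h group and the TSA 2.5 h group each consisted of 3 mice that received 60 µg of TSA per mouse, dissolved in dimethylsulfoxide and PBS, as 1 subcutaneous injection, and they were killed at the time in the group's name. Groups killed at 5 h and 7.5 h were treated in the same way, and mice of the carrier control group, injected with carrier only, were killed at 10 h. These 3 groups appear beside the comparison and in the mean over all arrays by which dim probes were left out. Testis RNA was pooled within each group of 3 mice before labelling, and each pool was hybridised to 2 CodeLink 1-channel arrays. Each time is therefore 1 pool (n = 1), the duplicate arrays are technical, and the time after TSA cannot be told apart from any other difference between the mice of the 2 pools. No p-value is given for the difference itself, and every standard error (SE) below comes from the duplicate arrays and holds no spread between animals. The number of arrays limits the precision.

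Values are normalised intensities on a linear scale on which the median probe of every array stood at 1.00, and differences are log2 of the 10 h pool minus log2 of the 2.5 h pool, so a positive value is higher at 10 h. After the dimmest 25% of probes (mean intensity under 0.207) were left out, 7422 probes for 6573 genes were compared. Duplicate arrays correlated with r = 0.997 in the 10 h pool and r = 0.998 in the 2.5 h pool, and 13 and 9 tested probes lay more than 2-fold apart between them. Transcripts of elongating spermatids and the sperm tail (21 genes measured) summed to an intensity of 1749 and 1793 on the 10 h arrays, against 1742 and 1701 on the 2.5 h arrays, and those of round spermatids (25 genes) to 985 and 1017 at 10 h, against 954 and 939.8 at 2.5 h, so markers of male germ cells, which define the labelled tissue, were present in both pools. The 5 h pool stood apart: transcripts of liver plasma proteins were far above the other pools there, with Ttr, a thyroid hormone carrier, at 19.0 in the 5 h pool, against 0.0557 at 10 h and 0.151 at 2.5 h. The 5 h arrays do not enter the differences. They do enter the mean over all 10 arrays that set the intensity filter, the brightness classes and the brightest probe of a gene. Ttr, with 0.0605 at 7.5 h and 0.0951 in the carrier pool, was under 0.207 in every pool but the 5 h pool. It passed the filter only through its 5 h level and is counted among the lower calls below. Other values that use the 5 h pool are named as such. In RNA of whole testis, fewer cells of a type and less RNA per cell cannot be told apart.

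A probe was called higher or lower at 10 h when the pools differed at least 2-fold (a log2 difference of 1) and both arrays of one pool lay beyond both arrays of the other. By this size rule 59 of 7422 probes (0.795%) were lower at 10 h and 14 (0.189%) were higher. Counted by gene, with the brightest probe standing for a gene, 54 of 6573 genes (0.822%) were lower and 12 (0.183%) higher. At 1.5-fold in place of 2-fold, 300 probes (4.04%) were lower and 108 (1.46%) higher. Over all tested probes the median difference was 0.026, and 46.2% of them lay below 0. Calls were concentrated among dim probes: with probes split into 4 classes of equal size by mean intensity, there were, from dim to bright, 38, 15, 5 and 1 lower calls and 10, 3, 1 and 0 higher ones, and the standard deviation (SD) of the differences was 0.397 in the dimmest class and 0.207 in the brightest. In 18 of the 59 lower probes the 10 h level lay under the intensity limit of 0.207, and in 6 of the 14 higher probes the 2.5 h level did. When 0.25 was added to each intensity before the logarithm, which damps differences between dim values, 10 probes were lower and 3 higher. Just inside the limit stood Ifi47 (1.000), Umod (1.01) and 1500002C15Rik (1.04), with Dbp (0.98), Trim69 (0.96) and Ly6d (0.94) just outside it. On the lower side Traf2 (-1.005), Fbn2 (-1.005) and Wrap73 (-1.01) stood just inside, with Pip5k1a (-0.996), a probe without a gene name (-0.992) and Triap1 (-0.992) just outside.

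**Figure D1:**
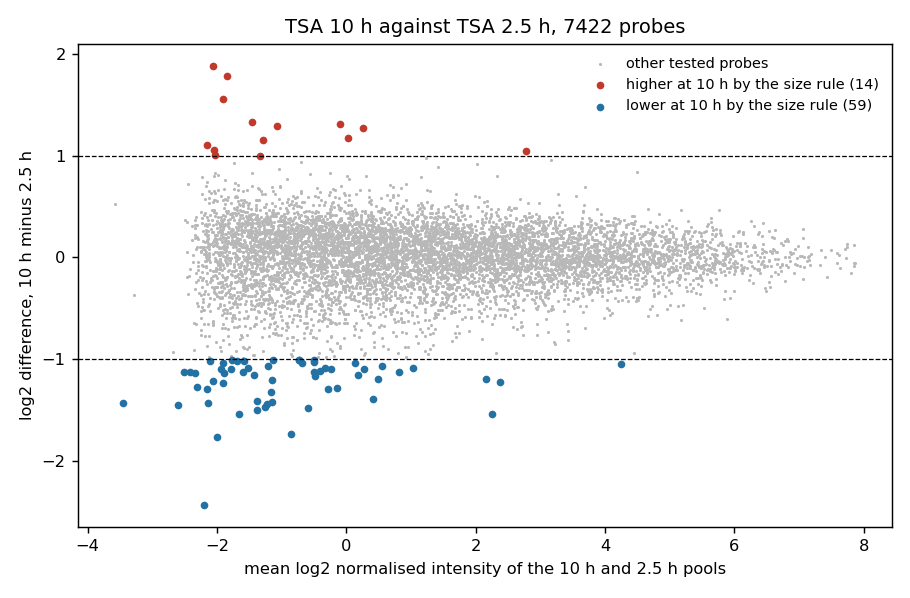
Log2 difference of the TSA 10 h pool minus the TSA 2.5 h pool (vertical) against the mean log2 normalised intensity of both pools (horizontal), 1 point per probe for 7422 probes. Red points are the 14 probes higher at 10 h and blue points the 59 lower at 10 h by the size rule, and dashed lines mark a 2-fold difference. Most coloured points lie at the dim left side.

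The lower genes had varied known functions. Ppp5c, which encodes a serine/threonine phosphatase that works with the chaperone Hsp90, had intensities of 0.337 and 0.274 on the 10 h arrays, against 0.908 and 1.13 on the 2.5 h arrays, a log2 difference of -1.74 ± 0.22 (SE). Alkbh7, a mitochondrial member of the AlkB dioxygenase family, had 2.62 and 2.95 at 10 h, against 7.97 and 8.20 at 2.5 h (-1.54 ± 0.088). The size rule requires every 10 h array to lie below every 2.5 h array, so this holds for each lower call. The duplicates of Ppp5c lay further apart than those of Alkbh7. Prmt5, an arginine methyltransferase of histones and splicing proteins that germ cells need, had 0.298 and 0.257 at 10 h, against 0.712 and 0.768 at 2.5 h (-1.42 ± 0.12). Tesk1, a kinase first found in testis that acts on the actin regulator cofilin, had 1.24 and 1.16 at 10 h, against 2.61 and 2.62 at 2.5 h (-1.13 ± 0.047). Dyrk1b, a kinase linked to cell cycle exit, had 2.79 and 3.10 at 10 h, against 7.01 and 6.48 at 2.5 h (-1.20 ± 0.093). The arrays of the pools lay apart in these 3 genes, as the size rule requires of any call.

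Other lower genes are described singly by their known role, and no list of splicing genes was read. Luc7l3, a protein of the spliceosome's U1 particle, had 3.39 and 3.41 at 10 h, against 8.13 and 7.77 at 2.5 h, a log2 difference of -1.23 ± 0.033. Acin1, which takes part in splicing and in chromatin condensation during apoptosis, had 0.833 and 0.809 at 10 h, against 2.08 and 2.24 at 2.5 h (-1.39 ± 0.058). Tra2a, a splicing activator of the SR-like family that lay outside the naming rule and was picked after its values were seen, had 1.00 and 1.01 at 10 h, against 2.11 and 2.11 at 2.5 h (-1.07 ± 0.0074). Duplicates of these transcripts lay close together in both pools.

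The named lower genes also held a few with roles in signalling or the cell cycle. Ccnd2, the cyclin D2 that drives cells from G1 into S phase and marks dividing spermatogonia, had 0.946 and 0.909 at 10 h, against 2.31 and 1.97 at 2.5 h (-1.20 ± 0.12). Dvl1, which relays Wnt signals inside the cell, had 0.622 and 0.537 at 10 h, against 1.37 and 1.45 at 2.5 h (-1.29 ± 0.11). Yap1, the coactivator at the end of the Hippo pathway, had 0.259 and 0.240 at 10 h, against 0.583 and 0.527 at 2.5 h (-1.15 ± 0.091), which put its 10 h level just above the intensity limit. Dok4, a docking protein of tyrosine kinase receptors, had 0.243 and 0.227 at 10 h, against 0.643 and 0.610 at 2.5 h (-1.41 ± 0.063). For Dok4 the 10 h pool lay at the carrier level (0.248) and the 2.5 h pool was the one that stood away from it, whereas Ccnd2 at 10 h lay below the carrier level of 1.33 and at 2.5 h above it.

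Lipe, the hormone-sensitive lipase without which male mice are sterile, had 0.281 and 0.283 at 10 h, against 0.703 and 0.709 at 2.5 h (-1.32 ± 0.0075). Mgll, which cleaves monoglycerides, had 0.582 and 0.579 at 10 h, against 1.28 and 1.20 at 2.5 h (-1.10 ± 0.049). Pxmp4, a peroxisomal membrane protein, had 0.258 and 0.243 at 10 h, against 0.668 and 0.719 at 2.5 h (-1.47 ± 0.068), but another probe of the same gene differed by -0.54 ± 0.17. On a list of 32 measured genes of lipid and cholesterol metabolism, Lipe was the 1 gene lower by 1.5-fold or more with arrays apart and 0 were higher, with a list median of -0.030, beside 4.11% of all genes that were lower at that size.

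The remaining lower genes of the naming rule covered the single-strand DNA binding subunit Rpa2 (-1.44), the centrosome protein Fam110a (-1.5), the lipocalin receptor Lmbr1l (-1.48), Itm2c (-1.20), the kelch protein Klhdc3 (-1.16), the tight junction protein F11r (-1.12), the LIM domain protein Csrp1 (-1.12), Zswim6 (-1.12), Purb (-1.09), Abhd8 (-1.09) and the endosomal sorting protein Snx27 (-1.09), with SE between 0.018 and 0.16. Rpa2 had 0.285 and 0.238 at 10 h, against 0.705 and 0.704 at 2.5 h, and Lmbr1l had 0.400 and 0.392 at 10 h, against 1.17 and 1.05 at 2.5 h. Purb, a DNA-binding repressor, is uncertain: its other probe, the brighter one, had 2.38 and 2.99 at 10 h, against 2.41 and 2.13 at 2.5 h (0.24 ± 0.19). Tex101, a glycoprotein of the germ cell surface that sperm need to enter the oviduct, had 13.5 and 12.8 at 10 h, against 27.5 and 27.0 at 2.5 h (-1.05 ± 0.038), with close duplicates.

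For some lower genes the 10 h level lay under the intensity limit, so only the levels are given. H2ax, a variant histone that takes a phosphate mark at DNA breaks and on the sex chromosomes of meiotic cells, had 0.120 and 0.153 at 10 h, against 0.487 and 0.439 at 2.5 h. Sertad3, a transcription cofactor, had 0.102 and 0.0867 at 10 h, against 0.486 and 0.530 at 2.5 h. Bop1, a factor of ribosome assembly, had 0.203 and 0.170 at 10 h, against 0.567 and 0.514 at 2.5 h. Cit, a kinase of cytokinesis, and Fbxl8, an F-box protein, were also called lower with a 10 h level under the limit.

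Only 8 named genes were higher at 10 h with both pools above the limit, and their quality was uneven. Kdm5d, the Y-linked demethylase of histone H3 lysine 4, had 1.87 and 1.83 on the 10 h arrays, against 0.765 and 0.766 on the 2.5 h arrays, a log2 difference of 1.27 ± 0.013. 1500002C15Rik had 9.86 and 9.85 at 10 h, against 4.66 and 4.90 at 2.5 h (1.04 ± 0.036). Map4k5, a kinase upstream of the JNK pathway, had 1.60 and 1.47 at 10 h, against 0.677 and 0.683 at 2.5 h (1.17 ± 0.065). These 3 genes had close duplicates in both pools.

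Setmar, a SET domain methyltransferase, had 0.657 and 0.566 at 10 h, against 0.281 and 0.266 at 2.5 h (1.16 ± 0.11), and Ifi47, an interferon-inducible GTPase, had 0.530 and 0.591 at 10 h, against 0.277 and 0.283 at 2.5 h (1.000 ± 0.080). The other 3 rested on probes whose duplicates disagreed. 5033417F24Rik had 0.933 and 0.361 at 10 h, against 0.185 and 0.286 at 2.5 h (1.34 ± 0.75), and Tmem236 had 0.462 and 1.20 at 10 h, against 0.351 and 0.264 at 2.5 h (1.29 ± 0.72). Zcchc18, on the X chromosome, had 1.45 and 1.5 at 10 h, against 0.608 and 0.585 at 2.5 h (1.31 ± 0.038), but the duplicate arrays of single other pools spanned the same range: 1.33 and 0.561 in the carrier pool, 1.44 and 0.664 at 5 h, and 0.643 and 1.76 at 7.5 h. Duplicates at least 2-fold apart in a pool outside the comparison were found for 4 of the 14 higher probes and 3 of the 59 lower ones. Setting aside these probes and those with a level under the limit left 6 higher and 41 lower probes. The 6 still include 5033417F24Rik, because its duplicates disagreed within the comparison, at 10 h. Levels under the limit at 2.5 h concerned Tmigd1, Clasp2, Umod and Mapk13, which had 0.445 and 0.472, 0.352 and 0.345, 0.324 and 0.375, and 0.323 and 0.338 at 10 h, in that order, and 0.149 to 0.194 on the 2.5 h arrays.

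**Figure D2:**
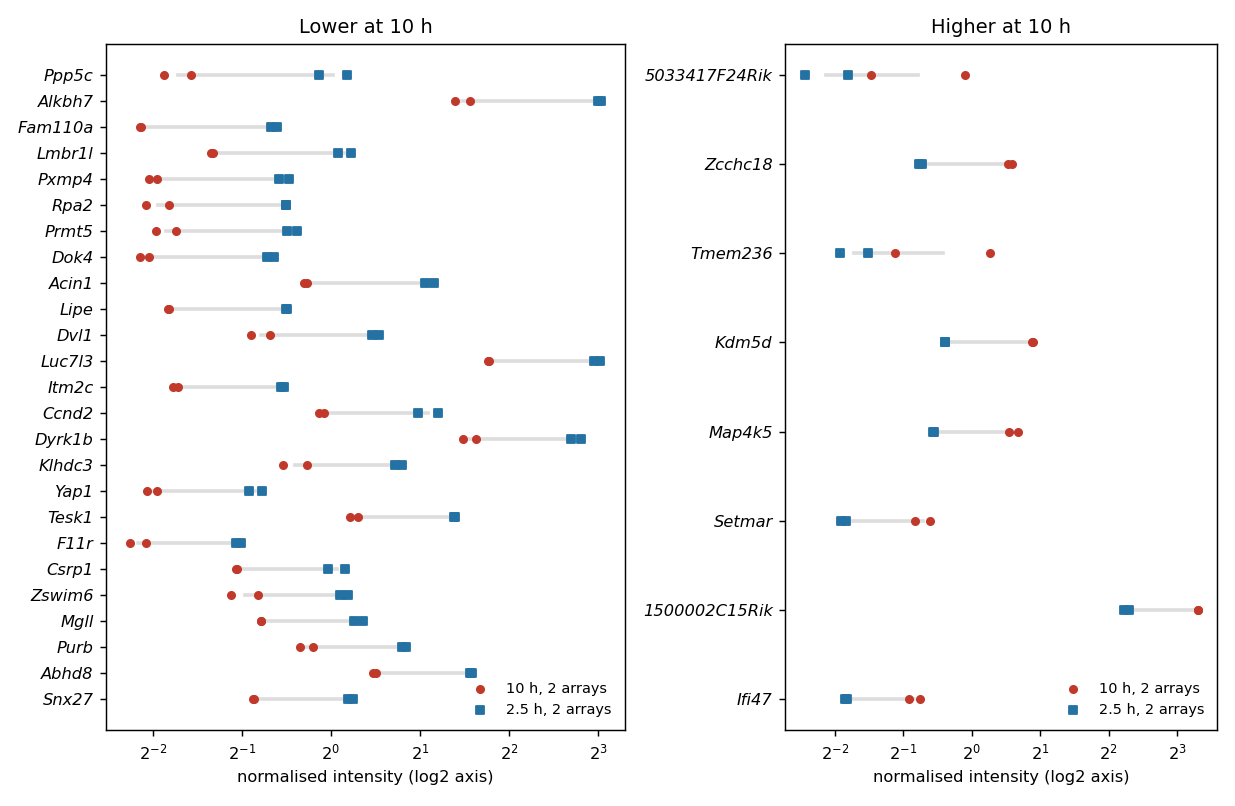
Normalised intensity on each array (log2 axis) of the 25 lower (left) and 8 higher (right) genes named by rule. Red circles are the 2 arrays of the 10 h pool, blue squares the 2 arrays of the 2.5 h pool, and the grey bar joins the pool levels. The pools are apart for every gene, as the size rule requires, but the 10 h arrays of 5033417F24Rik and Tmem236 are also far from each other.

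The other pools place these levels in time. Of the 59 lower probes, 55 had both the 5 h and the 7.5 h level between those at 10 h and 2.5 h, and of the 14 higher probes 9 did, against 2383 of all 7422. Picking probes by their 2 end points favours such an order, so these counts are descriptive. The 7.5 h minus 5 h difference shares no array with the comparison. It was below 0 for 36 of the 59 lower probes (61.0%), against 45.3% of all tested probes, with a median of -0.074, against 0.018 for all tested probes. It was above 0 for 8 of the 14 higher probes, against 4056 of all 7422, a similar share. The median of the higher probes was 0.13. Over all tested probes the 2 differences correlated with r = 0.092, a description across probes of the same arrays and with the 5 h pool in it.

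The carrier pool lay nearer to the 2.5 h level than to the 10 h level for 54 of the 59 lower probes, against 4458 of all 7422. For 37 of the 59 it was above both, for 21 between both and for 1 below both. Over all tested probes these counts were 2881, 1749 and 2792. Picking probes by their 10 h and 2.5 h levels bears on these counts too, so they are descriptive. The median log2 difference of the lower probes from the carrier pool was -1.40 at 10 h and -0.15 at 2.5 h, against 0.0072 and -0.016 over all tested probes. Ppp5c, for example, stood at 0.545 at 5 h and 0.505 at 7.5 h, with 1.19 in the carrier pool, and Alkbh7 at 6.58 and 5.09, with 5.76 in the carrier pool. For the 14 higher probes the carrier level was between both pools in 11, above both in 2 and below both in 1, with median differences from it of 0.26 at 10 h and -0.78 at 2.5 h. The carrier level lay nearer to the 2.5 h level for 4 of these 14. Map4k5 stood at 1.32 and Setmar at 0.554 in the carrier pool, close to their 10 h levels and far above their 2.5 h levels. Kdm5d and 1500002C15Rik ran the other way: their carrier levels of 0.638 and 4.96 were near those at 2.5 h, and at 7.5 h they had reached 2.21 and 10.9. Map4k5 stood at 0.957 at 5 h and 0.768 at 7.5 h, Setmar at 0.548 and 0.348, and Ifi47 at 0.611 and 0.384. Each of them was thus lower at 7.5 h than at 5 h, so their order in time was not steady.

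**Figure D3:**
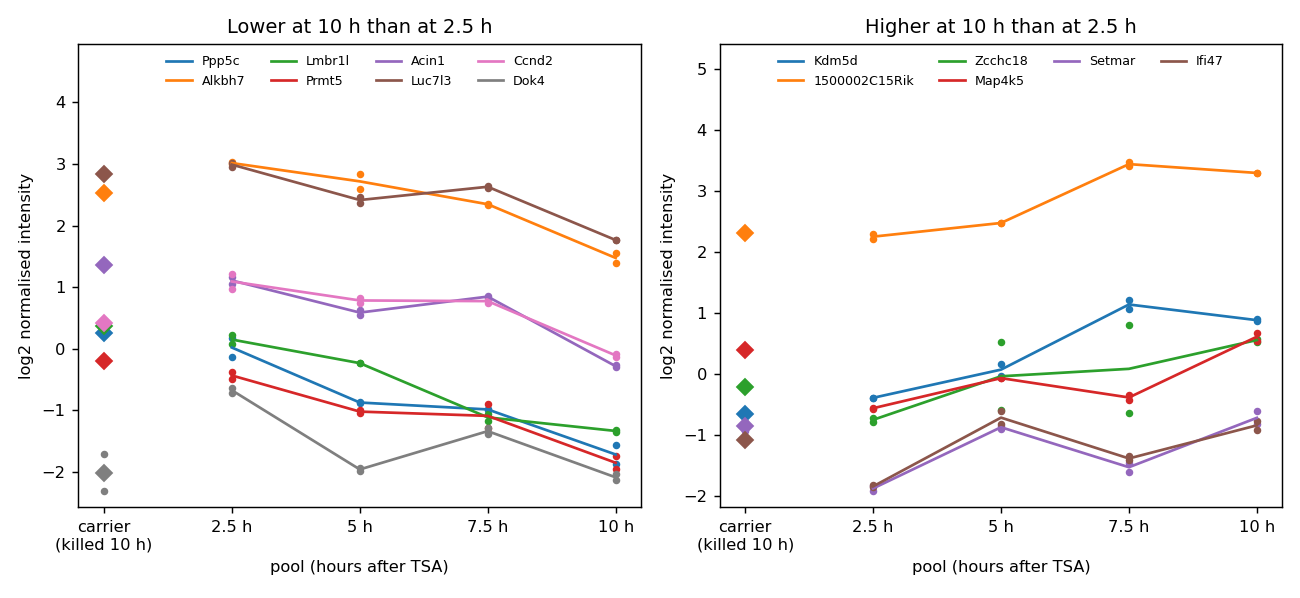
Log2 normalised intensity (vertical) of 8 lower genes (left) and 6 higher genes (right) in the carrier pool (diamonds) and along the 4 TSA times (lines through pool levels, small points for single arrays). Kdm5d and 1500002C15Rik are already high at 7.5 h, while Map4k5, Setmar and Ifi47 at 10 h are near or above their carrier levels. Map4k5, Setmar and Ifi47 do not rise steadily, each being lower at 7.5 h than at 5 h.

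The TSA pools also allow a test across times, a slope of log2 intensity per hour over the 4 pool means with 2 residual degrees of freedom (limma, Benjamini-Hochberg over 7422 probes). With it 0 probes passed an adjusted p of 0.05 (smallest adjusted p = 0.0686), while 1251 had an unadjusted p under 0.05, of which 672 had a falling and 579 a rising slope. With the trend and robust options of limma's eBayes 105 probes passed, 90 of them falling (1.21%) and 15 rising (0.202%), among them 24 of the 59 lower and 5 of the 14 higher probes. With the dimmest 50% left out 29 passed, 28 of them falling. Without the 5 h pool 0 passed, and 1179 had an unadjusted p under 0.05. The slope is built from the same 10 h and 2.5 h pools and is no independent support for the calls.

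Gene lists were read at 1.5-fold with arrays apart, a size that 270 of 6573 genes (4.11%) met on the lower side and 89 (1.35%) on the higher side, with a median of 0.024 over all genes. Among the histone deacetylases and sirtuins, the family TSA acts on in part, 1 of 10 was lower and 0 were higher. The lower one was Sirt3, the mitochondrial deacetylase that TSA does not target, with 1.77 and 1.46 at 10 h, against 2.95 and 2.8 at 2.5 h (-0.84 ± 0.15). The classical deacetylases differed less: Hdac6 by 0.45, Hdac1 by 0.19, Hdac2 by 0.12, Hdac3 by -0.10 and Hdac5 by -0.35. Of 24 other histone-modifying enzymes 3 were lower and 2 higher, with Prmt5, Kdm5d and Kat5, an acetyltransferase of histone H4 (-0.68 ± 0.041), as the named ones. Among 14 histone genes and packaging proteins 2 were lower, H2ax and Macroh2a1, the variant macroH2A (5.99 and 6.33 at 10 h, against 9.48 and 9.94 at 2.5 h).

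DNA replication and repair genes lay below the median of all genes. Of 83 measured, 57 had a difference below 0, with a median of -0.11; 7 were lower at 1.5-fold (H2ax, Rpa2, Mcm7, Rad51c, Ung, Polk and Orc6) and 2 higher (Neil1 and Wrn). Mcm7, a subunit of the replicative helicase, had 0.641 and 0.608 at 10 h, against 1.20 and 1.24 at 2.5 h (-0.97 ± 0.043). Of 35 mitosis genes 2 were lower, the kinases Pkmyt1 (-0.89 ± 0.056) and Plk1 (-0.66 ± 0.090), and the median was -0.10. Among 25 genes of meiotic spermatocytes 4 were lower and 0 higher: Tex101, the transcription factor Mybl1 that drives meiotic genes (-0.82 ± 0.072), the meiotic cohesin Rec8 (-0.69 ± 0.089) and the synaptonemal complex protein Tex12. The median of this list was -0.036.

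Several lists of housekeeping genes had medians below that of all genes. In the mitochondrial respiratory chain 35 of 40 genes lay below 0 with a median of -0.12, though only Sdhc passed 1.5-fold (6.79 and 6.69 at 10 h, against 10.1 and 12.4 at 2.5 h). The proteasome list had a median of -0.13 with 0 of 39 genes at 1.5-fold, the ribosome assembly list -0.15 with 2 of 39 lower (Bop1 and Gar1), the list of aminoacyl-tRNA synthetases and translation factors -0.086 with 4 of 37 lower, and the cytosolic ribosomal proteins -0.048 with 0 of 58. Glycolysis differed in sign, with a median of 0.087, and had the pyruvate kinase Pkm (-0.98 ± 0.045) and the aldolase Aldoc (-0.75 ± 0.047) lower and the glucose transporter Slc2a1 higher (0.60 ± 0.16). These shifts of list medians are smaller than the 1.5-fold size and carry no test.

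Lists with medians above that of all genes had few calls. Ion channels had a median of 0.15 with 44 of 57 above 0 and 2 higher at 1.5-fold, signalling ligands and receptors 0.17 with 2 of 53 higher and 1 lower, and neuronal genes 0.15 with 1 of 25 higher. That gene, Ncan, which encodes a proteoglycan of nervous tissue, had 5.88 and 5.32 at 10 h, against 2.84 and 3.08 at 2.5 h (0.92 ± 0.092). In the circadian clock list the output factor Dbp was higher, with 3.11 and 3.49 at 10 h, against 1.71 and 1.63 at 2.5 h (0.98 ± 0.088), and the kinase Csnk1e lower (-0.60 ± 0.033), out of 15. The sources used here do not give the time of day at which mice were killed. Of 21 immediate early genes 1 was lower, the stress-induced Gadd45b (-0.97 ± 0.071), with a 10 h level at the limit. Of 16 glucocorticoid-responsive genes none met 1.5-fold, with a range of -0.36 to 0.45. Among 18 cell cycle inhibitors and classic deacetylase-inhibitor-responsive genes 2 were lower (Gadd45b and Bmp4), while Cdkn1a, the inhibitor p21 that such compounds induce in many cell lines, had 2.77 and 2.64 at 10 h, against 3.34 and 3.62 at 2.5 h. Insl5, an insulin-like peptide, had 7.54 and 6.46 at 10 h, against 6.10 and 5.34 at 2.5 h, with 2.00 in the carrier pool, so that both treated pools lay on the same side of it.

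Markers of the cell types of the testis and its surroundings were read in the same way. Round spermatid genes had a median of 0.11 and those of elongating spermatids 0.13, and neither list held a gene that met 1.5-fold in either direction. Among the Sertoli cell genes 1 of 19 was higher, the transcription factor Wt1 (4.25 and 3.84 at 10 h, against 2.57 and 2.67 at 2.5 h), and the Leydig cell list had 0 of 15 calls with a median of -0.069. Among 14 spermatogonial genes Ccnd2 was the 1 call, at -1.20 ± 0.12, with a list median of -0.030. Of 18 genes of peritubular cells and fibroblasts 1 was lower, the muscle filament gene Des (0.335 and 0.316 at 10 h, against 0.503 and 0.545 at 2.5 h), with a list median of -0.054. Of 14 endothelial genes 1 was lower, the tight junction gene Cldn5 (0.131 and 0.108 at 10 h, against 0.241 and 0.277 at 2.5 h), with its 10 h level under the limit, and 1 was higher, the apelin receptor Aplnr (0.60 ± 0.24), with a list median of 0.11. The summed level of 21 macrophage and leukocyte markers was 118 and 132 on the 10 h arrays, against 102 and 103 on the 2.5 h arrays, with Siglec1 and Cd7 higher and H2-Aa lower. Of these 21 markers 12 lay above 0 and 9 below, with a list median of 0.11. A sum leans on its brightest members, and Siglec1 stood at only 0.391 at 10 h, against 0.235 at 2.5 h. The 6 erythroid markers summed to 36.9 and 38.9 at 10 h, against 36.0 and 35.6 at 2.5 h, and the globin gene Hba-a1 alone to 15.7 at 10 h, against 18.05 at 2.5 h. The 2 epididymis markers, Gpx5 and Eppin, differed by 0.16 and 0.051. Low intensities had been raised to a floor, so no measured marker of these lists could be at 0 in either pool. Whether a cell type was absent from a pool was not tested. Of 22 liver genes 4 were lower, 3 of which the naming rule gives: Ttr, with both pools under the limit and tested only through its 5 h level, Apoc1 (2.44 and 2.51 at 10 h, against 4.49 and 3.82 at 2.5 h) and Fabp1 (0.348 and 0.390 at 10 h, against 0.628 and 0.529 at 2.5 h). The part of such cell types in the differences above was not tested.

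**Figure D4:**
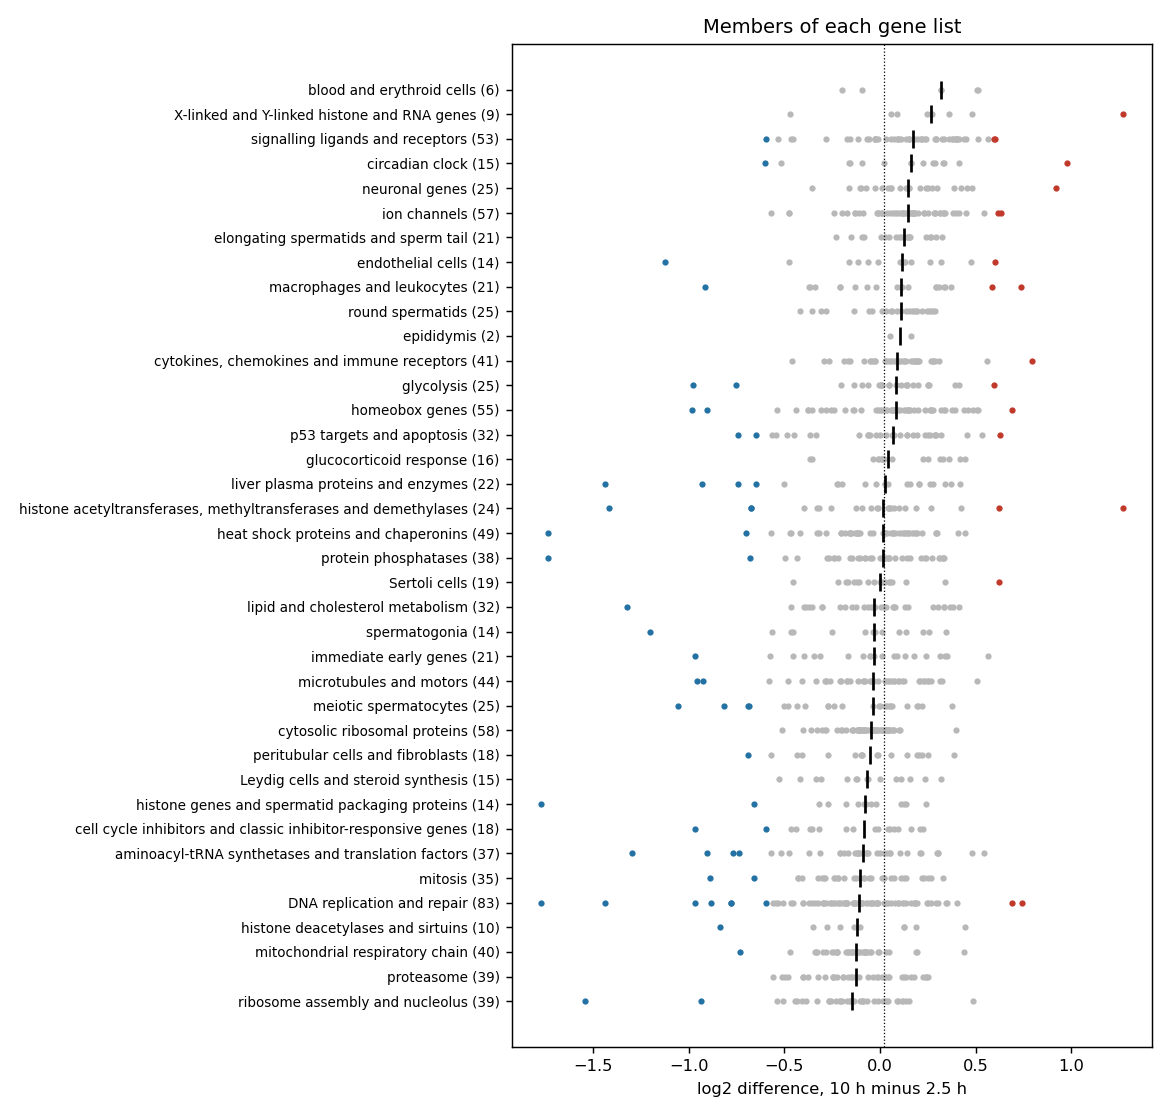
Log2 difference of 10 h minus 2.5 h for the members of each gene list (1 point per gene, number of genes in brackets), lists ordered by their median (black tick). Blue and red points are lower or higher at 10 h by at least 1.5-fold with arrays apart, and the dotted line is the median of all genes tested. List medians run from -0.15 to 0.32, and no list has more than 9 coloured points, most of its members being grey.

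X-linked genes stood slightly higher at 10 h as a group. During meiosis the X and Y chromosomes of male germ cells are silenced and marked by H2ax, and much of that silence lasts into spermatids. The 220 X-linked genes had a median difference of 0.18 with 75.5% above 0, against a median of 0.019 with 52.7% above 0 for 6343 autosomal genes. Single autosomes had medians between -0.015 (chromosome 5) and 0.083 (chromosome 18). Each of the 4 pairings of a 10 h with a 2.5 h array gave an X-linked median between 0.16 and 0.17. X-linked medians exceeded autosomal ones in each brightness class, from dim to bright 0.13, 0.22, 0.19 and 0.13 for X-linked genes, against 0.061, 0.028, 0.016 and -0.0026 for autosomal genes. Relative to the carrier pool the X-linked median was 0.0026 at 2.5 h, 0.082 at 5 h, 0.032 at 7.5 h and 0.16 at 10 h. The step from 5 h to 7.5 h went the other way, with a median of -0.062 for X-linked genes, against 0.018 for autosomal genes, so the order in time was not steady, and that step includes the 5 h pool.

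The X-linked difference was a small shift of many genes rather than of a few. Only 5 of 220 X-linked genes were higher at 1.5-fold (Zcchc18, Magea5, Cul4b, Eda and Smarca1) and 1, Rnf113a1, was lower. Cul4b, a scaffold of ubiquitin ligases, had 0.907 and 0.950 at 10 h, against 0.568 and 0.587 at 2.5 h, and Magea5, of a gene family active in male germ cells, had 2.15 and 1.95 at 10 h, against 1.21 and 1.29 at 2.5 h. Smarca1, a chromatin remodelling ATPase, had 0.886 and 0.877 at 10 h, against 0.584 and 0.579 at 2.5 h. Of 9 Y-linked genes 7 lay above 0, and at 1.5-fold 1 was higher, Kdm5d at 1.27, and 1 was lower. Eif2s3y differed by 0.48 and Zfy2, which is not the lower call, by -0.47. Since each time is 1 pool, no test of the chromosomes over animals was possible.

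**Figure D5:**
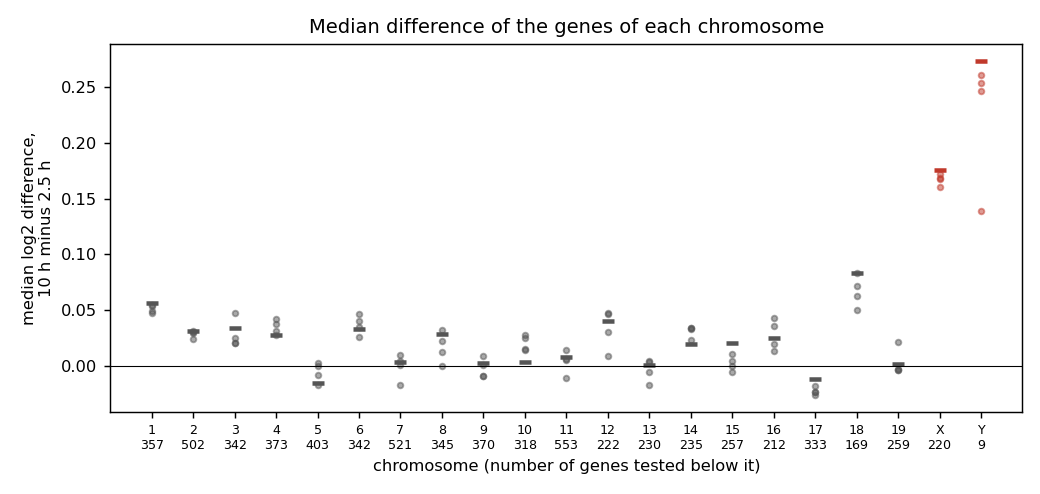
Median log2 difference of 10 h minus 2.5 h of the genes of each chromosome (bar for the pool levels, points for the 4 pairings of single arrays, number of genes under each name). The X-linked median of 0.18 lies above every autosome, and the Y value rests on 9 genes.

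Differences of 10 h minus 2.5 h varied with the CpG content of promoters. The dinucleotide CpG, where DNA methylation sits, is dense in promoters of broadly active genes and sparse in many tissue-restricted ones. RefSeq promoters of build GRCm38.p6 (250 bases before to 50 after the first listed start) were found for 5325 of 6573 genes (81.0%). Genes with 0 to 11 CpG had a median difference of 0.11, those with 12 to 20 one of -0.016, those with 21 to 28 one of -0.039 and those with 29 to 63 one of 0.0032. In the first class 1.73% of genes were lower at 1.5-fold, while in the other classes 4.68% to 5.49% were. Genes with few CpG were also dimmer, but within each brightness class their median was above that of genes with 12 or more CpG, from dim to bright 0.15, 0.12, 0.082 and 0.074, against -0.027, -0.016, -0.0074 and -0.022. X-linked genes have a lower CpG count (median 13, against 20 over all genes), and in the first 3 CpG classes they had medians of 0.20, 0.10 and 0.17, against 0.10, -0.023 and -0.045 for autosomal genes. In the class of 29 to 63 CpG, with 11 X-linked genes, the median was -0.031, against 0.0035 for autosomal genes. Over all genes with a promoter entry, the 7.5 h minus 5 h medians were 0.013, -0.0051, 0.012 and 0.035 from few to many CpG. That step shares no array with the comparison and includes the 5 h pool. Genes with 0 to 11 CpG did not stand highest in it.

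The promoters of 4 genes are shown to let the density of CpG, in capitals, be seen. Ppp5c and Alkbh7 are the lower genes with the largest differences among named calls with both pools above the intensity limit. Kdm5d and 1500002C15Rik are higher genes with close duplicates, picked after their values were seen. They replace 5033417F24Rik (49 CpG), whose 10 h arrays disagreed, and Zcchc18 (17 CpG), whose duplicates disagreed only in pools outside the comparison. Both replaced genes hold more CpG than the 2 shown, so these promoters do not represent the CpG content of higher genes. Map4k5 (1.17 ± 0.065) also had close duplicates and a larger difference than 1500002C15Rik, but was not picked.
Ppp5c (chr7:17027865-17028164, minus strand, 25 CpG): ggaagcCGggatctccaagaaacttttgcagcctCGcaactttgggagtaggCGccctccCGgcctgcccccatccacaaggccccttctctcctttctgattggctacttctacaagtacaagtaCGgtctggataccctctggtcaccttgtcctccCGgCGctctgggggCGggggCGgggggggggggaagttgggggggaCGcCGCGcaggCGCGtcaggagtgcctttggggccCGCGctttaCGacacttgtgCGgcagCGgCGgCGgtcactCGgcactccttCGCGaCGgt
Alkbh7 (chr17:56997089-56997388, plus strand, 13 CpG): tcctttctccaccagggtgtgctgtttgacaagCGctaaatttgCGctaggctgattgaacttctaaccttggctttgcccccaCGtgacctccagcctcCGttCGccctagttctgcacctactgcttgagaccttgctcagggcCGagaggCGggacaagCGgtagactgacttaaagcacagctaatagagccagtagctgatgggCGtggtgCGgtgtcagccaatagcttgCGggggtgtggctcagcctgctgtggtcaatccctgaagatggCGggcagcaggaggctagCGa
Kdm5d (chrY:897538-897837, plus strand, 15 CpG): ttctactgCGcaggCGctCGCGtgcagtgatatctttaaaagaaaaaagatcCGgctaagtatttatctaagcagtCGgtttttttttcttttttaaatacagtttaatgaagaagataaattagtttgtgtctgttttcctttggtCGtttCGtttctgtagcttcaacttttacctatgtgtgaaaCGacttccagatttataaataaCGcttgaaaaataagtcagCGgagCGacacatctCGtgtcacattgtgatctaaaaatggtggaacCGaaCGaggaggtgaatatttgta
1500002C15Rik (chr4:155734393-155734692, minus strand, 10 CpG): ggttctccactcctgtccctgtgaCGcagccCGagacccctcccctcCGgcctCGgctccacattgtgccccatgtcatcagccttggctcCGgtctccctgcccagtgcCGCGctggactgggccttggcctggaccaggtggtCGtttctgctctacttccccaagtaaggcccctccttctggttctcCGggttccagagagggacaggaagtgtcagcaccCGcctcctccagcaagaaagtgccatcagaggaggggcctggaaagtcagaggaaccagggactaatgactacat
The share of G and C was 65.7% in Ppp5c, 57.3% in Alkbh7, 36.7% in Kdm5d and 62% in 1500002C15Rik. Short motifs were searched on both strands. Of the 220 genes that were lower at 1.5-fold and have a promoter entry, 70.9% held the GC box letters GGGCGG, against 60.6% of all tested genes with an entry, and 5.45% held TATAAA, against 8.30%. The letters CCAAT were held by 37.3% of them, against 38.5%, CCGGAA by 32.7%, against 26.5%, TGCGCA by 21.4%, against 14.4%, TGACG by 33.2%, against 31.1%, and CACGTG by 10.0%, against 10.9%. For genes lower at 2-fold (79.6% with an entry) and higher at 1.5-fold (79.8%) under 80% had an entry, so the same reading is void for them. Of the 12 genes higher at 2-fold, all with an entry, 4 held GGGCGG (33.3%), 3 held TATAAA (25%), 4 held CCAAT (33.3%), 3 held TGACG (25%), 1 held CCGGAA, 1 held TGCGCA and 0 held CACGTG, shares that rest on few genes. A match describes letters in a window and not a bound site.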

How the data were processed

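Total RNA of mouse testis, pooled from 3 mice per group, had been labelled and hybridised to CodeLink 1-channel arrays (Cy5), per the labels' protocols. The deposited values are normalised intensity on a linear scale, per probe and array. The sorted values of all 10 arrays are identical (largest difference 0), so the authors' table is already quantile normalised; the sources used here name no scanner software, background correction or spot flags. Of 10012 probes 115 have no value. Per the platform table, updated through the RefSeq gene table, 8983 probes carry 1 symbol.

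Intensities under the 5th percentile (0.0364) were raised to it, turned to log2 and shifted to a common array median, and the dimmest 25% of probes by the mean over all 10 arrays were left out. Pool levels are means of the 2 arrays. The size rule and the slope fit (limma 3.58.1, R 4.3.3; tested on simulated data) are described with the results. Named genes were up to 25 lower and 15 higher calls with both levels above the limit, up to 5 dim calls each way, up to 3 members per gene list and 14 fixed genes. Members, lists and rules were chosen with earlier results of these data known. Array numbers were checked for pairing: the correlation of deviations from the pool mean ran from -0.187 to 0.14 in 10 pool pairs, so the numbers do not pair arrays. Python 3.11.15 and matplotlib 3.10.9 were used for the figures.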

Additional observations from a re-analysis of the deposited data

How the results depend on the processing

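Quantile normalisation and leaving out the shift of the arrays could change no value, since all arrays already share the same sorted values, so they test nothing. With no floor the counts stayed at 59 lower and 14 higher probes. Without the filter 129 were lower and 42 higher, with the dimmest 50% left out 14 and 3, with an offset of 0.25 in place of the floor 10 and 3, at 1.5-fold 300 and 108, at 3-fold 3 and 2, and with both pool levels above the limit 41 and 8. Leaving out 1 array gave 60 to 66 lower and 12 to 19 higher probes. Centring on probes of like ID number gave 60 and 15, of which 48 and 14 were shared with the values reported. A paired reading with a replicate block, though the numbers do not pair the arrays, gave 42 lower and 10 higher. The slope passed for 29 probes with the dimmest 50% left out and 105 with trend and robust, and for 0 under its other alternatives. Of 46 named genes, compared under up to 15 settings, none changed direction. Only the centring on ID numbers could have changed a direction, because the size rule already requires the arrays of the pools to lie apart. The unchanged directions are therefore no support for the calls. With the offset 33 of the 46 fell short of 2-fold. For 5033417F24Rik the difference was 0.65 without the first 10 h array, and for Tmem236 0.60 without the other. The X-linked minus autosomal median, 0.16 over probes, ranged from 0.13 to 0.18 under alternatives chosen after the data were seen. Causes of these moves were not tested, other than that fewer probes enter under stricter filters. Weak signal limits dim probes, for which no detection flags were at hand.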
